A study of Mus musculus with 8 samples.

Results

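The genes described here are 49 writers, readers and erasers of DNA and histone methylation, chosen by name from the 33971 genes of the table. They fall into 9 groups by role, namely DNA methyltransferases with *Uhrf1*, TET dioxygenases, methyl-CpG binding proteins, the PRC2 core, H3K9 methyltransferases, the H3K4 methyltransferase family, H3K36 and H3K79 methyltransferases, lysine demethylases, and arginine methyltransferases. All 49 were found, and all 49 passed the filter on low counts, which left 19367 genes for testing. The RNA came from whole brains of wild-type (WT) E14.5 mouse embryos. In one group the pregnant WT dams received a choline-deficient diet (CDD, n = 4 brains), and in the other a normal chow diet (ND, n = 4 brains), from the day of mating until collection. A legend in the study places the start of the CDD before mating instead. Neither the strain nor the number of dams and litters is given, so p-values measure the spread between these 8 brains, which may include littermates. In bulk RNA from whole brain, more cells of a type and more RNA per cell cannot be told apart.

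Writers of these marks transfer a methyl group from S-adenosylmethionine (SAM) to cytosine or to a lysine or arginine of a histone. Choline feeds this supply, because its oxidation product betaine can return homocysteine to methionine, the precursor of SAM. *Dnmt3a* and *Dnmt3b* methylate DNA de novo, *Dnmt1* copies the pattern after replication with the help of *Uhrf1*, and the TET enzymes oxidize it. Polycomb repressive complex PRC2 and the H3K9 enzymes mark silenced chromatin, whereas the H3K4, H3K36 and H3K79 enzymes act mainly at active genes. Demethylases of the KDM1 and JmjC families remove the histone marks. In the developing cortex, PRC2 and the DNA methyltransferases are known for their part in timing the passage of progenitors from making neurons to making glia.

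Maternal CDD went with small shifts in this machinery. *Uhrf1*, the reader of half-methylated DNA that brings *Dnmt1* to newly replicated DNA, rose 1.26-fold, and with it rose the PRC2 subunits *Suz12* and *Ezh2*, the H3K9 methyltransferase *Suv39h2*, the H3K36 methyltransferase *Nsd1* and the demethylases *Kdm5a* and *Kdm7a*. *Setd1b*, an H3K4 methyltransferase, fell. Thus 7 of 49 members were higher in CDD and 1 was lower at an adjusted p-value under 0.05 (edgeR quasi-likelihood test, Benjamini-Hochberg over all 19367 genes), while 41 were not called. Of all genes tested, 4.24% were called higher, 4.59% were called lower and 8.83% were called in either direction, against 16.3% of the members. At an unadjusted p-value under 0.05 the counts were 18 of 49 members (36.7%) and 23.9% of all genes. All genes tested include many with fewer counts than the members, which had 173 or more in every brain. These shares were not matched for level. The fold change was above 0 for 38 members and below 0 for 11, where 9507 of all genes tested were above 0 and 9860 below. The members had a median log2 fold change of 0.066 (range -0.16 to 0.33) beside a median of -0.0038 over all genes tested. The median size of the log2 fold change, without its sign, was 0.067 for members and 0.11 for all genes.

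**Figure D1:**
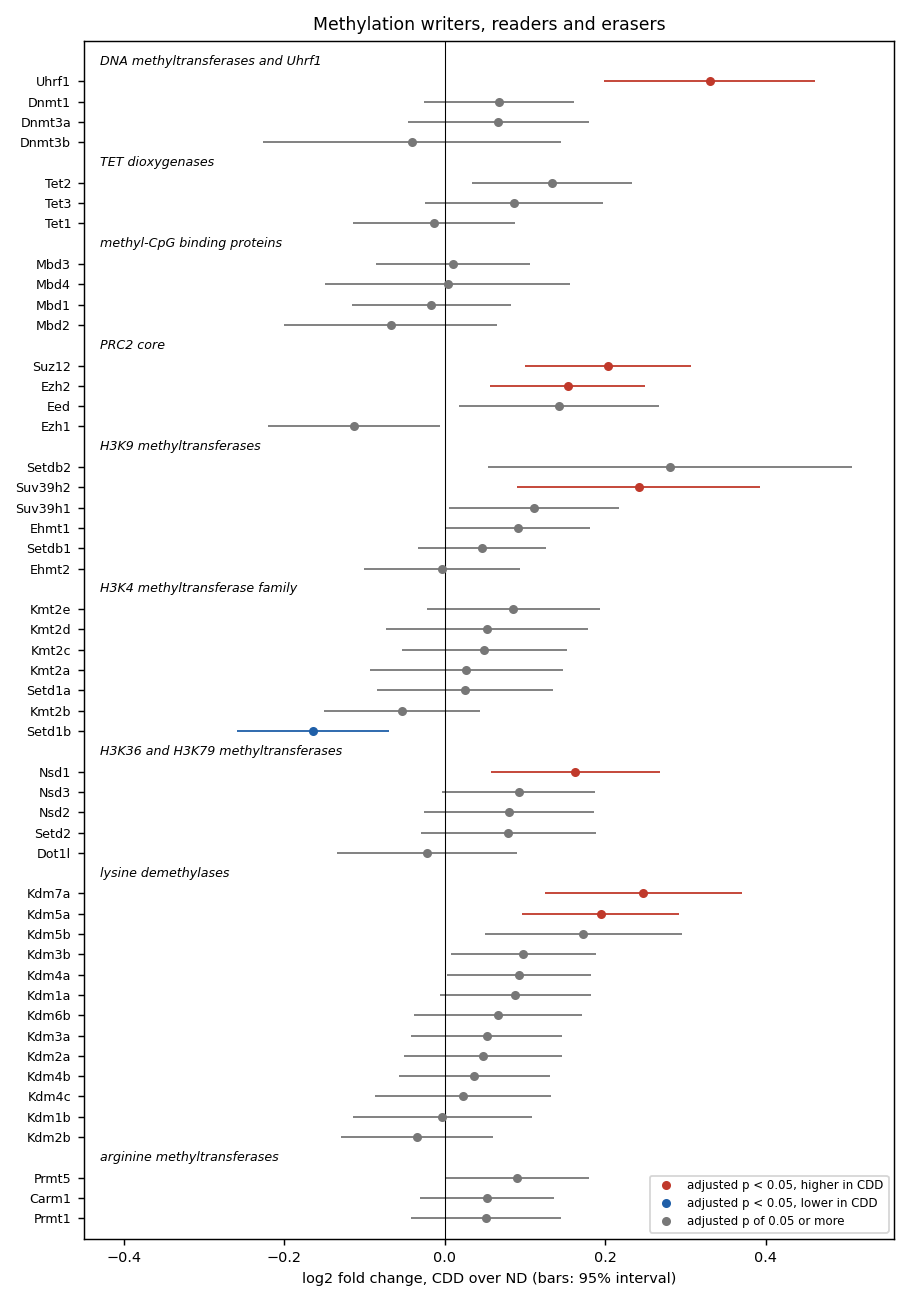
Log2 fold change of CDD over ND for each of the 49 genes, grouped by role, with its 95% interval (n = 4 brains per diet). Red marks the 7 genes called higher, blue the 1 called lower and gray the 41 not called. Points right of 0 outnumber those left of it, 38 to 11, and few lie beyond 0.2.

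The count changed when single brains were left out, and so did the count over all genes. For the members it was 5 without CDD 1 or without CDD 4, 2 without ND 1 and 1 without ND 3 or without ND 4. It was between 6 and 8 without one of the brains CDD 2, CDD 3 and ND 2. *Uhrf1* was called in all 8 of these fits and was the single member called without ND 3 or ND 4. Of all genes tested, 1710 were called with all brains, 688 without ND 1, 471 without ND 3 and 615 without ND 4. Without one of the other brains, 1208 to 2495 were called. CDD 4 held the highest level of 33 of the 49 members (67.3%), whereas it held the highest level of 21.7% of all genes tested. Without CDD 4 the median log2 fold change of the members was 0.031, and without ND 1, ND 3 or ND 4 it was 0.058 to 0.061.

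**Figure D2:**
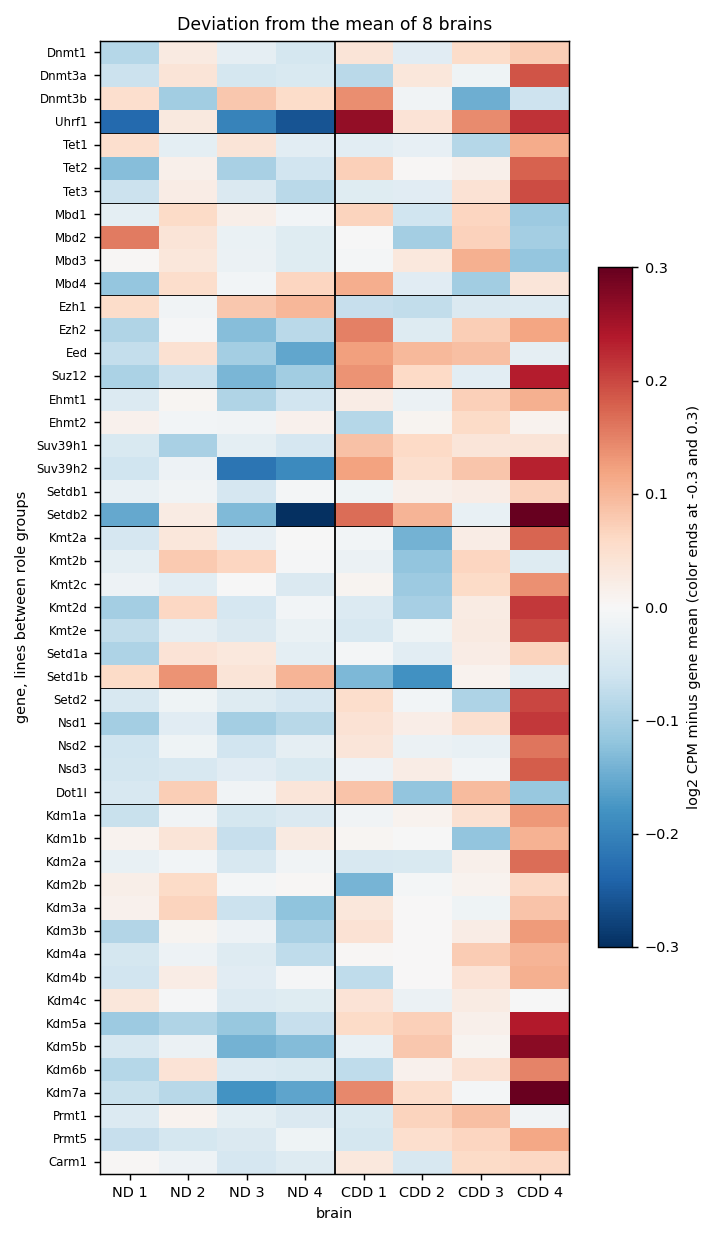
Deviation of each of the 49 genes (rows, in role groups) in each brain (columns) from its mean over the 8 brains, as log2 CPM. CDD 4 is the reddest column, and *Uhrf1* is the row with the largest log2 fold change, 0.33.

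The libraries held 31770217 to 43121170 counts. Some marker lists of cell types differed with diet in the same brains. Summed levels of the cycling, neural progenitor, microglia and endothelial lists did not overlap between diets. Those of the neuron, erythroid, meningeal and choroid plexus lists did. Beside the calls below, 4.24% of all genes were called higher and 4.59% lower. Of 16 markers of cycling cells, 12 rose and 0 fell, with a summed level of 1197 to 1423 CPM (counts scaled to library size) in CDD and 953.5 to 1101 CPM in ND. Among 10 neural progenitor markers 4 rose and 0 fell (summed level 1743 to 1904 CPM in CDD, 1561 to 1671 CPM in ND), and among 10 neuron markers 0 rose and 2 fell (6199 to 6858 CPM and 6320 to 6578 CPM). The brain label was borne out by the neuron markers, each of which had at least 2532 counts in every brain. Of 8 microglia and macrophage markers 2 fell and 0 rose (69.6 to 78.2 CPM in CDD and 79.2 to 91.1 CPM in ND), and of 7 endothelial markers 1 fell and 0 rose (243.4 to 259.6 CPM and 262.4 to 274.1 CPM). Of 11 erythroid markers 2 rose and 0 fell, namely the embryonic globin genes *Hbb-y* (log2 fold change 2.24, edgeR adjusted p-value 0.00651) and *Hba-x* (1.67, edgeR adjusted p-value 0.0208), while the summed level of the list was 764.3 to 1426 CPM in CDD and 827.2 to 2996 CPM in ND. Of 6 meningeal fibroblast markers 1 (*Lum*) rose and 2 (*Col1a1* and *Col1a2*) fell (447.8 to 497.6 CPM and 474.6 to 568.3 CPM). Of 5 choroid plexus markers 0 were called in edgeR's test, where 2 had an unadjusted p-value under 0.05, and 1 (*Clic6*) was called by DESeq2 and by limma-voom (180.3 to 491.6 CPM and 278.6 to 321.9 CPM). No marker of these 8 lists was at 0 in any brain. How far cell composition entered the values of the members was not tested. *Xist* stood at 1611, 1642 and 1700 CPM in CDD 2, CDD 4 and ND 4 and under 1 CPM in the other 5 brains, and the Y-linked demethylase gene *Kdm5d* was at 0 counts in those with high *Xist*. With *Xist* as a covariate the same 8 members were called.

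Promoters were read for the members, because several of these genes are known targets of the E2F factors that switch on replication genes. RefSeq windows on GRCm38.p6, from 250 bases before to 50 bases after a gene start, were matched by symbol for 35 of 49 members (48 windows). The 4 E2F-type sequences TTTCCCGC, TTTGGCGC, TTTGCCGC and TTTCGCGC, searched on both strands, were present in 5 of the 48 member windows (10.4%) and in 2.26% of all 32851 windows. Member windows were rich in CpG, with a median observed over expected ratio of 0.878 beside 0.384 over all windows. Among the 11765 windows with a ratio of at least 0.6, which included 41 of the member windows, 5.02% held an E2F-type sequence. Of those 41 member windows, 5 held one. The 5 members with a match were *Uhrf1*, *Suz12* and *Ezh2*, which were called higher, and *Dnmt1* and *Suv39h1*, which were not called. *Suv39h2* and *Kdm7a* had windows without these letters. Windows were not found for *Setd1b*, *Nsd1* and *Kdm5a*. A match describes letters and no binding was measured.

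The first pair of sequences below gives the 250 bases before the start of the called members *Uhrf1* (chr17:56304063-56304312, plus strand) and *Suz12* (chr11:79992856-79993105, plus strand). For the others, 30 bases around the match are given, namely *Ezh2* (chr6:47595009-47595038, minus strand), *Dnmt1* (chr9:20952824-20952853, minus strand) and *Suv39h1* (chrX:8074407-8074436, minus strand). Positions are on GRCm38.p6, each sequence is read along the gene's own strand, and capitals mark the E2F-type match, in *Dnmt1* and *Suv39h1* as its reverse complement. The match began 185 bases before the start in *Uhrf1*, 219 bases in *Suz12* and *Dnmt1*, and 64 bases in *Suv39h1*, whereas in *Ezh2* it lay just after the start. *Dnmt1* held another match after its start, which is not printed.
*Uhrf1*: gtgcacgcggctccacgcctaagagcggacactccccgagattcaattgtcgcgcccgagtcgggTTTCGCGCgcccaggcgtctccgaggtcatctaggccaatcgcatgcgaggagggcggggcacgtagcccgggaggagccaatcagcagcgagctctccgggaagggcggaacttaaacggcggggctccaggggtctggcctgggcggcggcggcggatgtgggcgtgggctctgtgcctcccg
*Suz12*: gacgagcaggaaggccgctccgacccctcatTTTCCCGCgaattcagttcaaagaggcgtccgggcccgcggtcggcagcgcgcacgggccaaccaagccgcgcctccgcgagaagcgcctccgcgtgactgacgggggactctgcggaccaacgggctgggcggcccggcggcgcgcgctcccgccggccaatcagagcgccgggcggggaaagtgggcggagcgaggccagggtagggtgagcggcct
*Ezh2*: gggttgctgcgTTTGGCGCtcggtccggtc
*Dnmt1*: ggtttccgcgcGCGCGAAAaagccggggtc
*Suv39h1*: ggaaggccggcGCGGCAAAcgtgggggccg

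CCAAT, the box bound by NF-Y, was found on either strand in 20 of 48 member windows (41.7%) and in 37.4% of all windows. The palindromic NRF1 motif was in 4.17% of member windows, all of *Dnmt1*, and in 0.971% of all windows. No E2F-type match overlapped a CCAAT or NRF1 match in a member window.

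The members differed widely in level, which is compared here in the FPKM that the authors deposited (per length). *Mbd3*, a subunit of the NuRD complex, stood at 76.3 ± 4.66 FPKM in CDD and 75.6 ± 1.64 FPKM in ND (mean ± SD, n = 4 each), followed by the main arginine methyltransferase *Prmt1* (76.6 ± 3.46 and 73.8 ± 1.32 FPKM) and the H3K9 methyltransferase *Ehmt2* (69.7 ± 3.11 and 69.6 ± 0.695 FPKM). In CDD the values of these genes in single brains overlapped. In ND those of *Mbd3* and *Prmt1* overlapped, whereas *Ehmt2*, at 68.9 to 70.3 FPKM, lay below both. *Setdb2* (1.69 ± 0.171 FPKM in CDD and 1.38 ± 0.128 FPKM in ND) and the de novo DNA methyltransferase *Dnmt3b* (1.75 ± 0.141 and 1.79 ± 0.100 FPKM) stood at the low end. The median level over all brains was 16.8 FPKM for members and 5.79 FPKM for the 14989 protein-coding genes tested. Member transcripts were also long, with a median listed length of 7377 bases beside 4462 bases for those protein-coding genes.

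**Figure D3:**
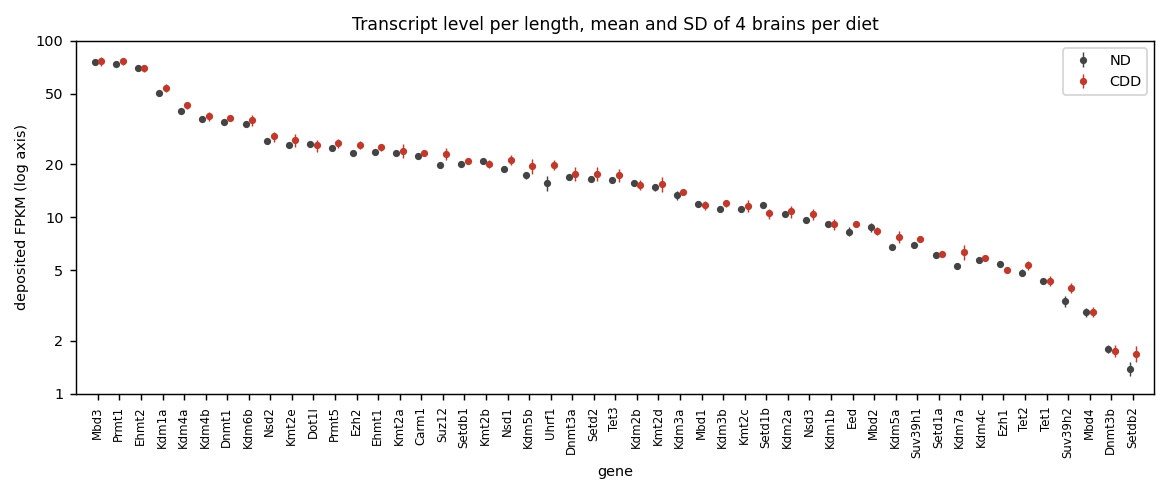
Deposited FPKM of the 49 genes (log axis), ordered by their mean over 8 brains, with points for the mean of 4 brains per diet and bars for the SD. Levels run from above 70 FPKM to below 2 FPKM, and the distance between diets is small beside the distance between genes.

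DNA methyltransferases were carried by *Dnmt1* and *Dnmt3a*, with *Dnmt3b* far below. Among the 4 genes of this group, *Uhrf1* rose and the others were not called. *Uhrf1* (chromosome 17, 56610321 to 56630486 on the authors' unnamed build) was measured at 90.1, 77.2, 82.8 and 87.3 CPM in CDD 1 to 4 and at 63.9, 76.7, 65.3 and 62.7 CPM in ND 1 to 4. The diets did not overlap, although ND 2 came within 1 CPM of CDD 2. The log2 fold change was 0.33 ± 0.062 (SE), with a 95% interval of 0.20 to 0.46 and an adjusted p-value of 0.0047 in edgeR's test. Leaving out each brain gave log2 fold changes of 0.30 to 0.40.

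*Uhrf1* is itself expressed most in dividing cells, and its level was therefore also divided by the summed level of the 16 cycling markers, a ratio chosen after the data were seen. As a percentage of that sum, *Uhrf1* was 6.79, 6.45, 6.86 and 6.13 in CDD 1 to 4, and 6.38, 6.96, 6.85 and 6.34 in ND 1 to 4. On this scale the diets overlapped, with means of 6.56% in CDD and 6.63% in ND. For the other 6 members that rose, the mean percentage was lower in CDD than in ND, for example in *Suv39h2* (1.37% and 1.47%) and *Nsd1* (28.8% and 32.8%). Every CDD brain was below every ND brain in *Ezh2*, *Suv39h2* and *Nsd1* on this scale, and the diets overlapped in *Suz12*, *Kdm5a* and *Kdm7a*. The 16 cycling markers had a median log2 fold change of 0.30, above those of these 6 genes (0.15 to 0.25), so a lower ratio follows from the levels themselves. The ratios have no test and are no test of cell composition.

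*Dnmt1*, the maintenance methyltransferase, was measured at 271.5, 258.0, 274.5 and 278.3 CPM in CDD and at 249.2, 269.4, 259.5 and 254.8 CPM in ND. Its log2 fold change was 0.067 ± 0.045 (SE), with a 95% interval of -0.026 to 0.16 and an adjusted p-value of 0.390 in edgeR's test. *Dnmt3a* had a log2 fold change of 0.067 (95% interval -0.047 to 0.18) and *Dnmt3b* one of -0.041, with means of 8.97 and 9.21 CPM in CDD and ND.

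Partners of DNA methylation were read from a separate list, of which 17 genes were tested, with 4 higher and 0 lower. Over all genes, 4.24% were called higher and 4.59% lower. *Hells*, the chromatin remodeller that opens heterochromatin for DNA methylation, stood at 41.7, 38.6, 35.4 and 41.5 CPM in CDD and at 30.5, 31.6, 28.7 and 31.5 CPM in ND (log2 fold change 0.36, edgeR adjusted p-value 0.0024). *Pcna*, the replication clamp, had a log2 fold change of 0.19 (edgeR adjusted p-value 0.0224). *Tdg*, the glycosylase that excises oxidized methylcytosine, had one of 0.15 (edgeR adjusted p-value 0.0294). In each of these 3 genes the diets did not overlap.

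The 3 TET dioxygenases and the 4 methyl-CpG binding proteins were not called in edgeR's test, by DESeq2 or by limma-voom. *Tet3* was the most abundant TET gene (17.4 ± 1.44 FPKM in CDD and 16.3 ± 0.522 FPKM in ND), above *Tet2* (5.34 and 4.85 FPKM) and *Tet1* (4.35 and 4.37 FPKM). *Tet2* had a log2 fold change of 0.13 ± 0.048 (SE), an unadjusted p-value of 0.0113 and an adjusted p-value of 0.0863 in edgeR's test. Log2 fold changes of the 4 Mbd genes ran from -0.067 in *Mbd2* to 0.010 in *Mbd3*, and none had an unadjusted p-value under 0.05.

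Of the 4 PRC2 genes 2 rose and 0 fell, where 8.83% of all genes were called. The call of *Ezh2* was lost under limma-voom, upper-quartile scaling and the replicate block (6 members called in each). All 4 had an unadjusted p-value under 0.05 in edgeR's test, as did 23.9% of all genes, but not in 1 direction, since *Ezh1* was lower in CDD. *Suz12*, the subunit that holds the complex together, was measured at 116.1, 110.3, 103.5 and 124.6 CPM in CDD and at 99.0, 101.1, 96.3 and 98.4 CPM in ND, with no overlap. Its log2 fold change was 0.20 ± 0.050 (SE), with an adjusted p-value of 0.0166 in edgeR's test. Without ND 1, ND 3 or ND 4 its log2 fold change was 0.19 to 0.21 but its adjusted p-value, at up to 0.0871, passed 0.05. *Ezh2*, the main catalytic subunit, was measured at 181.0, 158.7, 171.5 and 177.1 CPM in CDD and at 153.1, 162.6, 149.3 and 154.1 CPM in ND, where CDD 2 lay below ND 2. The log2 fold change of *Ezh2* was 0.15 ± 0.046 (SE), with an adjusted p-value of 0.0454, and the call was kept without CDD 2 or without ND 2, whereas the other 6 fits gave adjusted p-values of up to 0.187. *Eed*, which reads the mark that PRC2 writes, was not called (log2 fold change 0.14, edgeR adjusted p-value 0.145).

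*Ezh1*, the second catalytic subunit, which predominates in cells that no longer divide, lay on the other side. It was measured at 37.3, 37.2, 38.0 and 38.1 CPM in CDD and at 40.7, 38.9, 41.4 and 42.0 CPM in ND, with every CDD brain below every ND brain. The log2 fold change of *Ezh1* was -0.11 ± 0.051 (SE), which was not called (edgeR adjusted p-value 0.180).

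Ratios of paralogs were compared in 8 pairs of members, which does not depend on the scaling of a library. The log2 ratio of *Ezh2* to *Ezh1* was 2.28, 2.09, 2.18 and 2.22 in CDD and 1.91, 2.07, 1.85 and 1.88 in ND, so that the diets did not overlap. It was higher in CDD by 0.26 (a 1.2-fold difference), with an exact two-sided permutation p-value of 0.0286, the smallest that 4 against 4 brains allow, and 0.114 after adjustment over the 8 pairs. The log2 ratio of *Nsd2* to *Nsd1* was also separated, at 0.42, 0.39, 0.36 and 0.38 in CDD and 0.47, 0.45, 0.47 and 0.48 in ND, with the same p-values and a difference of -0.083. Log2 differences of the other 6 pairs ran from -0.24 in *Setdb1*/*Setdb2* (exact permutation p = 0.0571) to 0.13 in *Suv39h2*/*Suv39h1* (exact permutation p = 0.171), and the ratio of *Dnmt3b* to *Dnmt3a* differed by -0.10 (exact permutation p = 0.400). No pair passed 0.05 after adjustment.

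**Figure D4:**
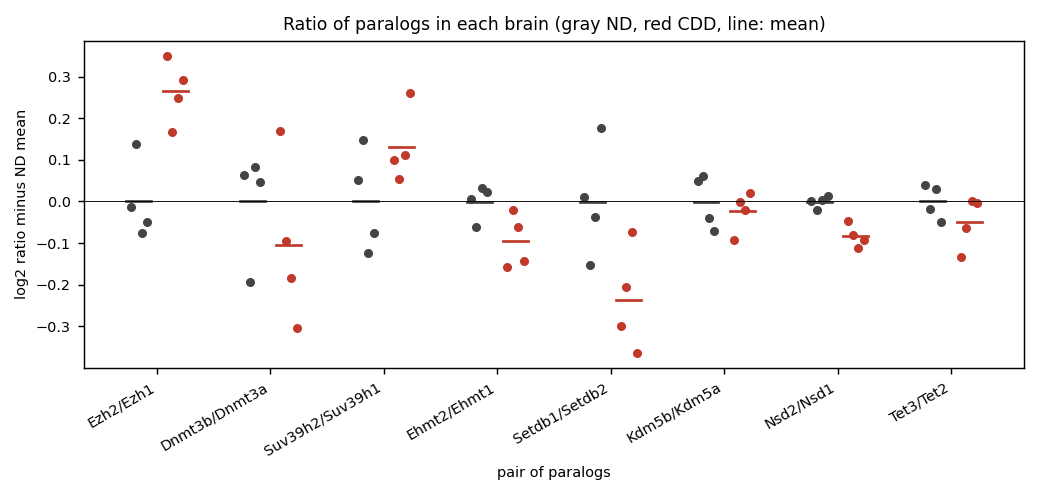
Log2 ratio of each pair of paralogs in each brain, less the mean of the ND brains, with gray points for ND, red points for CDD and lines for means. Only *Ezh2*/*Ezh1*, at 0.26 above the ND mean, and *Nsd2*/*Nsd1*, at 0.083 below it, show no overlap of the diets.

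Other Polycomb genes gave a mixed picture. Of 26 genes on the list of PRC2 partners and PRC1 subunits, 2 were called higher and 1 lower, with 12 fold changes above 0 and 14 below. *Pcgf5*, a subunit of variant PRC1, had a log2 fold change of 0.30 (edgeR adjusted p-value 0.0167). *Rbbp4*, the histone chaperone in PRC2, had one of 0.15 (edgeR adjusted p-value 0.0458).

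H3K9 methyltransferases divided by abundance. *Ehmt2* and its partner *Ehmt1*, which write the lower methylation states, and *Setdb1*, which silences retroelements, stood at 20 to 70 FPKM, whereas *Suv39h1*, *Suv39h2* and *Setdb2* stood under 8 FPKM. *Suv39h2*, which with *Suv39h1* trimethylates pericentric heterochromatin, was measured at 17.6, 16.7, 17.1 and 18.97 CPM in CDD and at 15.5, 15.97, 13.9 and 14.2 CPM in ND, with no overlap. Its log2 fold change was 0.24 ± 0.072 (SE), with an adjusted p-value of 0.0433 in edgeR's test. The call was kept without CDD 2, CDD 3 or ND 2, and the adjusted p-value reached 0.171 in the other 5 fits. The gene overlaps *Dclre1c* on the opposite strand, whose total was 114% of the *Suv39h2* count and whose log2 fold change was 0.065 (edgeR adjusted p-value 0.626). Whether reads were counted by strand is not given, so reads of the overlap cannot be told apart.

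*Suv39h1*, on the X chromosome, was measured at 40.8, 40.0, 39.3 and 39.4 CPM in CDD and at 37.2, 35.8, 37.6 and 37.1 CPM in ND. Its diets did not overlap, but its log2 fold change of 0.11 ± 0.051 (SE) was not called (edgeR adjusted p-value 0.187). *Setdb2* had a log2 fold change of 0.28 ± 0.11 (SE) and an adjusted p-value of 0.114 in edgeR's test, on 173 or more counts per brain, the fewest of any member. *Ehmt2* had means of 383.6 and 384.6 CPM in CDD and ND, and a 95% interval of the log2 fold change of -0.10 to 0.094. On the list of H3K9 partners 2 of 12 genes rose and 0 fell, where 8.83% of all genes were called in either direction. *Cbx5*, the heterochromatin protein HP1 alpha, had a log2 fold change of 0.25 (edgeR adjusted p-value 0.0153), and *Atf7ip*, the partner of *Setdb1*, had one of 0.15 (edgeR adjusted p-value 0.0470).

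Of the 7 genes of the H3K4 methyltransferase family, *Setd1b* fell and the others were not called. *Setd1b* was measured at 122.7, 118.7, 135.7 and 132.0 CPM in CDD and at 140.1, 147.7, 138.4 and 144.5 CPM in ND, with every CDD brain lower. Its log2 fold change was -0.16 ± 0.045 (SE), with an adjusted p-value of 0.0308 in edgeR's test. Only without CDD 3 or CDD 4 was the call kept, and the other 6 fits gave adjusted p-values of up to 0.109 at log2 fold changes of -0.13 to -0.18. Its close paralog *Setd1a* had a log2 fold change of 0.025, and the Kmt2 genes had values of -0.054 to 0.085. Of 11 tested partners of the H3K4 complexes 0 were called in edgeR's test, by DESeq2 or by limma-voom, although 2 had an unadjusted p-value under 0.05.

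Writers of H3K36 and H3K79 methylation included 1 called gene of 5. *Nsd1*, which dimethylates H3K36, was measured at 360.3, 354.7, 361.6 and 405.2 CPM in CDD and at 326.0, 341.7, 325.9 and 330.3 CPM in ND. The diets did not overlap, and CDD 4 lay apart from the other CDD brains. The log2 fold change was 0.16 ± 0.050 (SE), with an adjusted p-value of 0.0495 in edgeR's test, and it was called without CDD 3 but in none of the other 7 fits, with adjusted p-values of up to 0.187. Without CDD 4 the log2 fold change was 0.12. *Nsd3* was separated too, at 161.8, 165.9, 162.4 and 185.3 CPM in CDD and 157.4, 158.1, 159.6 and 158.4 CPM in ND, with a log2 fold change of 0.092 that was not called (edgeR adjusted p-value 0.230). *Setd2*, which trimethylates H3K36, and *Dot1l*, the H3K79 methyltransferase, had log2 fold changes of 0.079 and -0.023.

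Among 13 lysine demethylases 2 rose and 0 fell, where 4.24% of all genes were called higher and 4.59% lower. The fold change was above 0 in 11 of the 13, and in 9507 of all 19367 genes tested. *Kdm7a*, a JmjC demethylase of repressive marks, was measured at 64.7, 60.8, 58.3 and 72.0 CPM in CDD and at 55.9, 55.3, 51.7 and 52.5 CPM in ND, with no overlap. Its log2 fold change was 0.25 ± 0.059 (SE), with an adjusted p-value of 0.0144 in edgeR's test and of 0.0767 and 0.061 without ND 3 and without ND 4. *Kdm5a*, which removes H3K4 methylation, was measured at 107.2, 108.3, 104.2 and 121.6 CPM in CDD and at 95.5, 96.7, 95.2 and 98.2 CPM in ND, also with no overlap. The log2 fold change of *Kdm5a* was 0.19 ± 0.047 (SE), with an adjusted p-value of 0.0155 in edgeR's test, and without ND 1, ND 3 or ND 4 its adjusted p-value reached 0.0807. *Kdm5a* overlaps *Ccdc77* on the opposite strand, which had 14.1% of its count and a log2 fold change of 0.20 (edgeR adjusted p-value 0.0937).

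*Kdm5b*, the second KDM5 gene of the list, had a log2 fold change of 0.17 ± 0.059 (SE) and was not called (edgeR adjusted p-value 0.0730), whereas DESeq2 gave an adjusted p-value of 0.0495. *Kdm4a*, a demethylase of H3K9 and H3K36, was measured at 241.8, 241.7, 254.6 and 259.2 CPM in CDD and at 232.6, 238.7, 235.0 and 229.1 CPM in ND. These did not overlap, but the log2 fold change of 0.092 was not called (edgeR adjusted p-value 0.195). *Kdm1a*, the flavin-dependent demethylase LSD1, was the most abundant eraser (54.0 ± 2.64 FPKM in CDD and 50.6 ± 0.870 FPKM in ND), with a log2 fold change of 0.088 (edgeR adjusted p-value 0.245). *Kdm6b*, an eraser of the PRC2 mark, had a log2 fold change of 0.066. The 3 arginine methyltransferases *Prmt1*, *Prmt5* and *Carm1* had log2 fold changes of 0.051 to 0.090 and were not called.

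**Figure D5:**
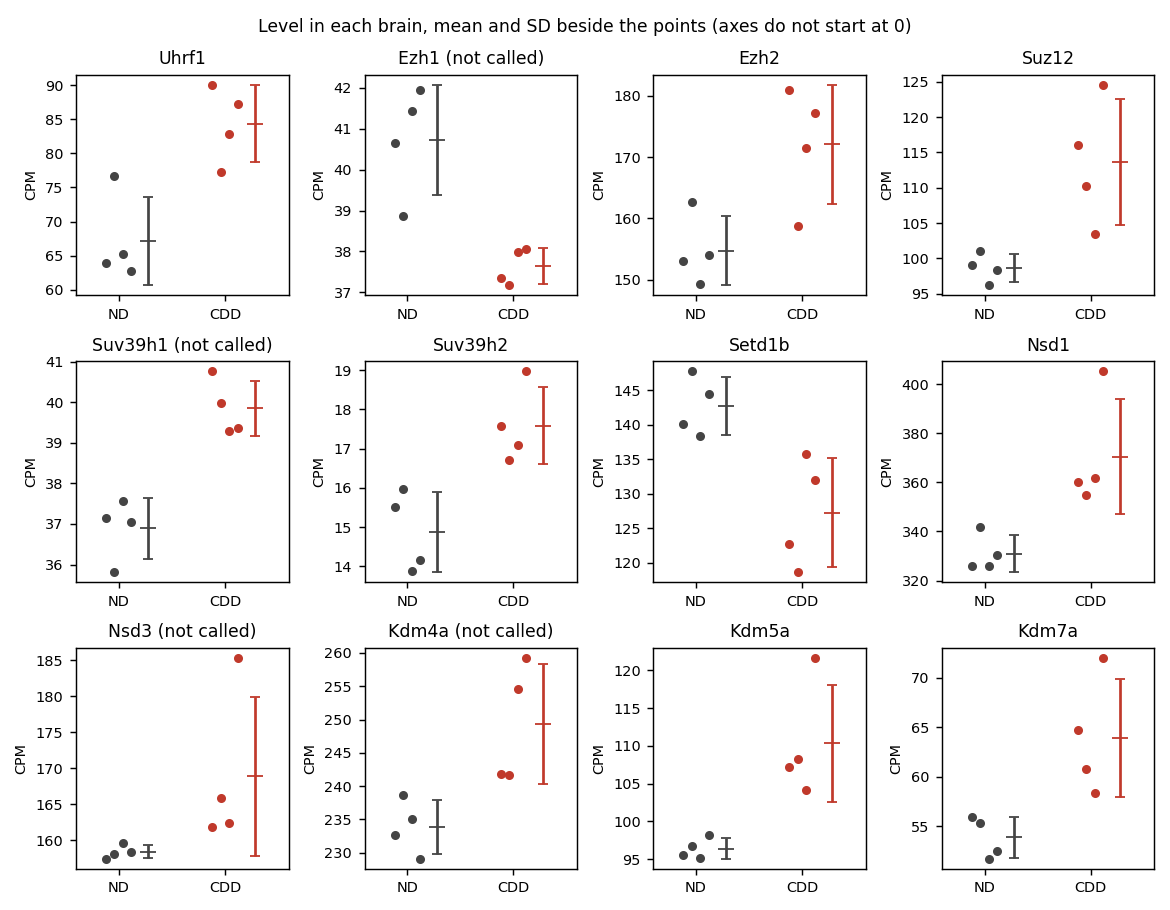
CPM in each brain for the 12 genes that were called or whose diets did not overlap, with the mean and SD of 4 brains beside the points (axes do not start at 0). *Ezh1* and *Setd1b* lie lower in CDD and the other 10 have higher means, and *Ezh2* is the one panel where the diets overlap.

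Brains of the diets did not overlap in 9 members with higher CDD levels (18.4%) and in 2 with lower CDD levels (4.08%). Of all genes tested, which were not matched for level, 7.65% and 7.39% were separated in these directions. The precision of the fits sets what could be seen in the 41 members not called. SEs of the log2 fold change ran from 0.038 to 0.11 over the members, and for 38 of the 41 the whole 95% interval lay within 0.25 of 0, a 1.19-fold change in either direction. The exceptions were *Eed*, *Setdb2* and *Kdm5b*, and the widest interval, of *Setdb2*, reached 0.51. The limit of 0.25 is above the size of the log2 fold change of every called member except *Uhrf1*. An interval within it can thus still hold a change as large as theirs. Of the 41, 10 had an unadjusted p-value under 0.05 in edgeR's test.

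Further enzymes outside the list and the methyl donor cycle were read in the same fit. Of 30 other methyltransferases, demethylases and their partners, 0 were called in edgeR's test and 5 had an unadjusted p-value under 0.05, whereas DESeq2 called 3 and limma-voom 0. Of 14 listed genes of the methionine cycle and methyl donor supply 10 were tested, of which 1 rose and 0 fell. It was *Ahcy*, the hydrolase that clears S-adenosylhomocysteine, the product and inhibitor of methyl transfer, at 54.2, 55.8, 53.8 and 55.3 CPM in CDD and 49.1, 51.2, 49.1 and 47.7 CPM in ND. Its log2 fold change was 0.15 ± 0.046 (SE), with an adjusted p-value of 0.0457 in edgeR's test. *Bhmt* (betaine-homocysteine methyltransferase, 0 to 11 counts per brain), *Bhmt2*, *Mat1a* and *Nnmt* did not pass the filter on low counts. *Chdh* (choline dehydrogenase, 21 to 55 counts per brain) had a log2 fold change of -0.57, which was not called (edgeR adjusted p-value 0.145).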

How the data were processed

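Poly-A RNA from 8 whole embryo brains (4 per diet) was sequenced, and samples were grouped by maternal diet as labelled. The authors deposited raw counts per gene without normalization, a signal (counts divided by a library size factor), FPKM made from that signal and the gene length, and their own comparison of diets as log2 fold changes and p-values, which was not used. The submitters' processing notes name HISAT2 2.0.5, featureCounts 1.5.0-p3 and DESeq2 1.20.0, without a role. The genome build is not given in the sources used here.

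Counts were filtered (filterByExpr), scaled by TMM and tested with the robust quasi-likelihood test of edgeR 4.0.16 on all genes (R 4.3.3), with Benjamini-Hochberg adjustment. CPM use the TMM scaling, and non-overlap means that every brain of one diet lay above every brain of the other. Paralog ratios were compared by exact permutation (SciPy 1.17.1). The script was tested on simulated counts. Brains of a diet differed by more than counting noise (chi-square per degree of freedom of 3.76 or more), so none is a copy of another library of its diet. Brains of unlike diets were not compared in this way. Each was used as 1 replicate, although some may be littermates. Depth was 31770217 to 43121170 counts per brain.

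The members, lists and tests were chosen with earlier results of these data known. All 49 members may be named. Each that was called or did not overlap is given in every brain, together with up to 3 called genes per partner list. For 1 called partner gene no values are reported here. *Dnmt3l* was not found in the table. Alternatives were DESeq2 1.42.0, limma-voom (limma 3.58.1), RLE and upper-quartile scaling, 2 other filters, a replicate block, a gene length offset, *Xist* as a covariate, a threshold of 0.01, FPKM for the ratios and each brain left out.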

Additional observations from a re-analysis of the deposited data

Results flagged for a closer look

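Of 98 groups of 4 brains (49 members in each diet), 2 had one brain far from the others, where chance alone would give about 1 in 20 groups. *Nsd1* was at 405.2 CPM in CDD 4, above the other CDD brains at 354.7 to 361.6 CPM. *Dnmt3b* was at 8.44 CPM in ND 2, below the other ND brains at 9.39 to 9.60 CPM.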

How the results depend on the processing

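Between 6 and 9 members were called under DESeq2 (9, with 2195 of all genes), no low-count filter (9, with 2374), a minimum of 10 counts per brain (8, with 1753), *Xist* as a covariate (8, with 1912), RLE scaling (7, with 1658), a gene length offset (7, with 2073), limma-voom (6, with 1414), upper-quartile scaling (6, with 1660) and the replicate block (6, with 1812), with 1 member lower in each. *Uhrf1*, *Suz12*, *Setd1b*, *Kdm5a* and *Kdm7a* were called in all 9. *Ezh2* was lost under limma-voom, upper-quartile scaling and the block, *Suv39h2* under limma-voom and the block, and *Nsd1* under RLE scaling, upper-quartile scaling and the length offset. At an adjusted p-value under 0.01, 1 member (*Uhrf1*) and 477 genes were called, 1 higher and 0 lower. Leaving out each brain gave 1 to 8 members called, 1 to 7 higher, 0 to 1 lower and 471 to 2495 genes, 11 to 21 members without overlap (fewer brains overlap less by construction) and a median log2 fold change of 0.031 to 0.090. Whether replicate numbers pair the brains is not given. Deviations of same-numbered brains correlated at 0.105, -0.133, 0.117 and 0.232, which cannot settle it, as brains of unlike number were not compared. In FPKM the same 2 paralog ratios were separated, which is no separate check, since gene length only shifts each log2 ratio by a constant. The sign of a separated ratio cannot change when 1 brain is left out. With each brain left out the differences were 0.24 to 0.31 for *Ezh2*/*Ezh1* and -0.095 to -0.073 for *Nsd2*/*Nsd1*. No ratio test can reach 0.05 there (smallest exact p 0.0571) or over 4 pairs (0.125). Of the alternative values of single genes and ratios, 40 lost a call, 4, all of *Kdm5b*, gained one and 869 did neither. The 869 include the ratios, which have no such call and moved by less than the larger SD of the diets. None of the 8 called members changed sign, and 0 to 3 of all 49 did under the 9 settings and 0 to 6 with a brain left out. Scaling moved the median of all genes to between -0.0083 and -0.00063.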
